A study of Homo sapiens with 4 samples.

Results

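The H3K27ac peaks of the ovarian cancer line OVCAR-3 on chromosome 3 were taken as every entry of the OVCAR-3 peak list placed on that chromosome. There are 10559 such peaks of 76093 in the OVCAR-3 list and of 251138 in the lists of all 4 lines. Chromosome 3 was chosen by its measured number of OVCAR-3 peaks per Mb, so this density is a description and supports nothing. OVCAR-3, SKOV-3 (also ovarian), DU-145 (prostate) and COLO-205 (colon) are established cancer cell lines, each grown to near confluence with no treatment named in the labels and profiled with the same antibody. Each line has 1 library, and the labels do not say how many cultures it came from, so no replicate error and no test between lines can be given, and every interval below covers counting error only. The ChIP depth estimated from the peak lists was 34200000 tags in OVCAR-3, 22400000 in SKOV-3, 36000000 in DU-145 and 29800000 in COLO-205, and the SKOV-3 list is much the shortest, with 14001 peaks. The labelled cell type was checked against markers. A peak lay within 1 kb of a start in OVCAR-3 at 6 of 6 epithelial genes and at 6 of 6 Müllerian and ovarian carcinoma genes, among them PAX8 and EMX2, and at 0 of 4 colon, 0 of 3 prostate and 0 of 4 leukocyte genes. All 6 epithelial genes were also marked in DU-145 and COLO-205, and 4 in SKOV-3. The colon and prostate lists were only partly marked in their own lines, with 2 of 4 colon genes in COLO-205 and 1 of 3 prostate genes in DU-145. COLO-205 also had 1 prostate gene marked. The Müllerian list is not specific to ovarian lines in these data, since 2 of its 6 genes were marked in SKOV-3, 3 in DU-145 and 4 in COLO-205, and over all protein-coding genes 60.7% were marked in OVCAR-3.

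H3K27ac is an acetylation of histone H3 that marks active promoters and active enhancers. Promoter peaks sit at transcription starts and tend to be common to many cell types, while distal peaks, in introns and between genes, differ more between cell types. The long arm of chromosome 3 (3q) carries genes that are often present in extra copies in ovarian and squamous carcinomas, such as MECOM, PIK3CA and SOX2, and the short arm (3p) carries many tumour suppressor genes. A peak caller compares the tags piled up at a site with a local background. Each peak is given a fold enrichment over that background and a −log10 q, which rises with the number of tags as well as with the enrichment.

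The sequences below show the 200 bases around the summits of 5 peaks that the results return to, on the forward strand of hg19 (GRCh37). The first 2 are the strongest peak of the chromosome, in the non-coding gene LINC02004 (chr3:134046251-134046450), and the peak at an annotated start of TBL1XR1 (chr3:176914685-176914884), both shared with all 3 other lines. The next is the strongest distal peak seen in OVCAR-3 alone, between genes on the CD47 side (chr3:107689377-107689576). The last 2 are OVCAR-3-only intronic peaks, in ACP3 (chr3:132065452-132065651) and IRAK2 (chr3:10222724-10222923), that hold the letters of AP-1, the factor family of FOS, which the study predicts as a regulator in this line together with EGR1. Capitals mark the AP-1 letters TGANTCA, read on both strands. The first 3 windows hold neither these nor the EGR1 letters GCGNGGGCG.
LINC02004 peak: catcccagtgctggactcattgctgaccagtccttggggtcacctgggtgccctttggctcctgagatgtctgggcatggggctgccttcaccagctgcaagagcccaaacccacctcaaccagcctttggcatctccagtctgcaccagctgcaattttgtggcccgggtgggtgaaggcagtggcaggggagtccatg
TBL1XR1 start: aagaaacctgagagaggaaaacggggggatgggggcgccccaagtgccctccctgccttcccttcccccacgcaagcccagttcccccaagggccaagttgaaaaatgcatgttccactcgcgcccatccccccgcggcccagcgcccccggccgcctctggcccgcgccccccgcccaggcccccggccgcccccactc
CD47 side, intergenic: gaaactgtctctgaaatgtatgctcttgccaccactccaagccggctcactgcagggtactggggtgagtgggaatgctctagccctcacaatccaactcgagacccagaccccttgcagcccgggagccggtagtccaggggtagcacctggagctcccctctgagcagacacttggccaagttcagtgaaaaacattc
ACP3 intron: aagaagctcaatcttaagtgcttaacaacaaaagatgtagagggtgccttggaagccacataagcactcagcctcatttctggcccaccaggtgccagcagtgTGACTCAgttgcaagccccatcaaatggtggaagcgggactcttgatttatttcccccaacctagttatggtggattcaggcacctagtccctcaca
IRAK2 intron: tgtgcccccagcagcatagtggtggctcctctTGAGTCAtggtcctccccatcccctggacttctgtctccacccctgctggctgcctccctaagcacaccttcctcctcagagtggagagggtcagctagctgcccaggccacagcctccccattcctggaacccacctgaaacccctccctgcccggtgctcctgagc

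Chromosome 3 held 13.9% of the OVCAR-3 list. Its density was 54.2 peaks per Mb of sequence without assembly gaps, 2.08 times the median chromosome and rank 4 of 23. DNA copy number and input reads were not analysed here, so the number of peaks, their pileup and their −log10 q cannot be told apart from the number of copies of a segment in any line, and this holds for every density, arm, window and gene value below. The other lines had 634 peaks there in SKOV-3, 2562 in DU-145 and 3393 in COLO-205, at 0.602, 0.471 and 0.567 times their own median chromosome. The OVCAR-3 peaks were unevenly split between the arms. The short arm held 1716 peaks, or 19.0 per Mb, and the long arm 8843, or 84.7 per Mb, so that 83.7% lay on 3q and 3q was 4.46 times as dense as 3p. The same ratio was 1.62 in SKOV-3, 1.76 in DU-145 and 9.65 in COLO-205, where 91.8% of the chromosome 3 peaks lay on 3q. An excess on 3q was therefore not particular to OVCAR-3, and it was largest in COLO-205. On 3p the other lines had 2.45 peaks per Mb in SKOV-3, 9.33 in DU-145 and 3.09 in COLO-205, from lists of unequal length.

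In bins of 1 Mb along the chromosome, OVCAR-3 had a median of 24 peaks per bin with an interquartile range of 6.5 to 75.5 over 195 bins that were mostly sequence. The medians of the other lines were 1 in SKOV-3, 5 in DU-145 and 7 in COLO-205. OVCAR-3 had the most peaks of all lines in 142 bins, COLO-205 in 21, DU-145 in 12 and SKOV-3 in 4. Bins of 100 peaks or more numbered 33 in OVCAR-3, 0 in SKOV-3, 1 in DU-145 and 9 in COLO-205. The peaks were concentrated, with 2992 of them, or 28.4%, in the 10 densest bins. At the other end, 12 bins held no OVCAR-3 peak. They include 1 to 2 Mb, 22 to 23 Mb and 26 to 27 Mb on 3p, where the other lines had 0 peaks as well, and 116 to 117 Mb on 3q, where COLO-205 had 9. Across bins of an arm, OVCAR-3 counts were higher where more protein-coding genes start, with a Spearman rank correlation of 0.80 over 90 bins of 3p and 0.59 over 104 bins of 3q. The correlation with DU-145 counts was 0.83 on 3p and 0.62 on 3q, with COLO-205 counts 0.73 and 0.70, and with SKOV-3 counts 0.66 and 0.67. These bins share gene content and base composition between lines, so the values are a description.

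**Figure D1:**
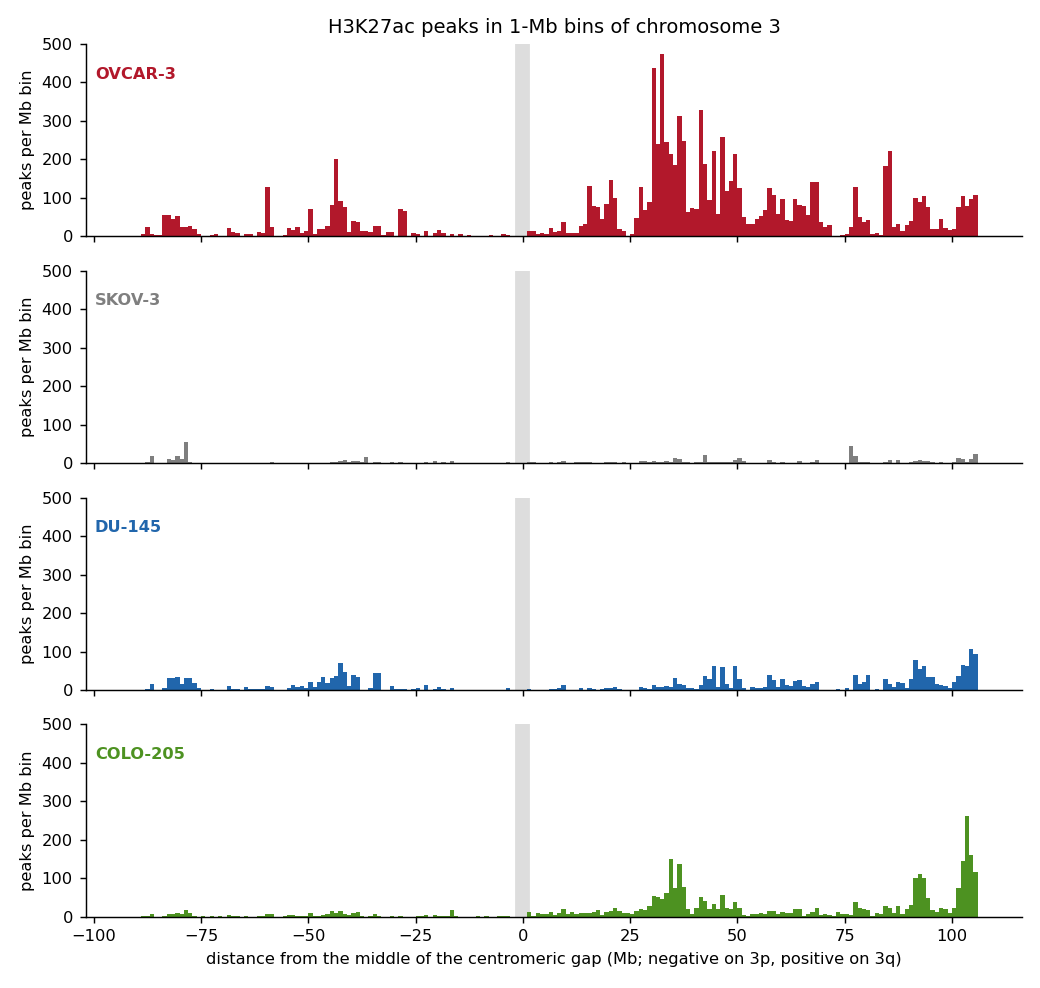
Number of H3K27ac peaks in each 1-Mb bin of chromosome 3 (bars) in each line, against the distance of the bin from the middle of the centromeric gap (grey), on 1 vertical scale. The OVCAR-3 bins reach 475 peaks on 3q and 202 on 3p, and the highest bin of another line is 261, in COLO-205.

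The densest stretch lay on the long arm, nearer to the centromere than to the end of the arm. Bins of 200 peaks or more numbered 13 in OVCAR-3, of which 12 were on 3q and 7 lay between 122 and 130 Mb. The bin from 124 to 125 Mb held 475 peaks, against 3 in SKOV-3, 8 in DU-145 and 45 in COLO-205. It spans KALRN, a guanine nucleotide exchange factor, with 150 summits in this bin, ITGB5, an integrin subunit, with 93, SLC12A8 with 91 and HEG1 with 57. The bin from 122 to 123 Mb held 438 peaks, with 96 summits in SEMA5B, a semaphorin, 48 in KPNA1, a nuclear import receptor, and 46 in PDIA5. The other lines had 6, 12 and 55 peaks in that bin. The bin from 133 to 134 Mb held 328 peaks, led by RYK, a receptor-like kinase that binds Wnt, with 75 summits and by SLCO2A1, a prostaglandin transporter, with 68. The next bins were 128 to 129 Mb with 314 peaks, over RAB7A, EEFSEC and RPN1, and 138 to 139 Mb with 259, over PIK3CB, a catalytic subunit of phosphoinositide 3-kinase, and MRAS. The single bin of this size on 3p, from 48 to 49 Mb, had 202 peaks, 37 of them in PRKAR2A, a regulatory subunit of protein kinase A, and 25 protein-coding genes start in it. By contrast the bin from 177 to 178 Mb had 221 peaks and the start of 1 protein-coding gene, against 7, 15 and 22 peaks in SKOV-3, DU-145 and COLO-205. Among all OVCAR-3 bins of the genome, 52 reached 200 peaks, and the bin at 124 to 125 Mb ranked 13.

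Counted by gene, KALRN held the most OVCAR-3 summits of the chromosome, 200 over 693 kb, where SKOV-3 had 1, DU-145 0 and COLO-205 18. STAG1, which encodes a cohesin subunit, held 110, TBL1XR1, a subunit of a nuclear corepressor complex, 101, and CLSTN2, a calsyntenin, 97. In these 3 genes SKOV-3 had 1, 2 and 1 summits, DU-145 39, 20 and 0, and COLO-205 14, 12 and 10. PRICKLE2 on 3p held 50 summits in OVCAR-3 and 0 in each other line. These genes were ranked after their values were seen, and long genes can hold more peaks.

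Joining OVCAR-3 peaks no more than 10 kb apart gave 2710 domains, of which 173 held 10 peaks or more and together 48.2% of the peaks. SKOV-3 had 4 such domains, DU-145 26 and COLO-205 37. The domain with the most bases under peaks, chr3:176769262-177199213, held 251 peaks over 100059 bases and runs from within TBL1XR1 past its outermost start into the gene-poor bin at 177 Mb. In that interval SKOV-3 had 7 peaks, DU-145 31 and COLO-205 31. The domain with the most peaks, 260, was chr3:124350689-124806306, over ITGB5, HEG1, the 3′ part of KALRN and MUC13. Another, chr3:133959929-134207420, was the most closely covered of the leading 5. Its 122 peaks take up 36.3% of its length and surround AMOTL2, which encodes an angiomotin family protein of the Hippo pathway. The other lines were also well represented there, with 23 peaks in SKOV-3, 37 in DU-145 and 23 in COLO-205. The remaining 2 were chr3:121993441-122451550, with 224 peaks over KPNA1, PARP15, PARP9 and PARP14, and chr3:122508762-122746782, with 141 peaks, 96 of them in SEMA5B.

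Most chromosome 3 peaks were weak and narrow. The median width was 277 bp with an interquartile range of 224 to 383, against 324 bp on the other chromosomes of the same list, and 3.52% were 1 kb or wider against 8.50%. The median −log10 q was 9.63 against 11.4. The median fold enrichment was 5.37 in both, while the median pileup at the summit was 23 tags against 29 and the median background 3.29 tags against 4.32. The arms differed in the same direction. On 3p the median width was 310 bp, the −log10 q 11.4 and the pileup 27 tags, close to the other chromosomes, whereas on 3q they were 273 bp, 9.46 and 22 tags.

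The excess of chromosome 3 was concentrated among weak peaks. The weakest class, from 3 to 5, held 399 chromosome 3 peaks, 13.9% of its class, at 2.73 times the density of the median chromosome. Of OVCAR-3 peaks with a −log10 q from 5 to 10, 17.0% were on chromosome 3, at 2.69 times the density of the median chromosome, and from 10 to 20 these values were 15.1% and 2.19 times. From 20 to 50 the density was 1.29 times the median, from 50 to 100 it was 1.11 times and at 100 or more 1.31 times, with 248 peaks in the last class. The ratio of 3q to 3p was 4.29 in the class from 3 to 5, 5.91 from 5 to 10, 5.06 from 10 to 20, 2.15 from 20 to 50, 1.45 from 50 to 100 and 2.71 at 100 or more. When every list was limited to its 14001 strongest peaks, the length of the SKOV-3 list, 1040 of the OVCAR-3 peaks were on chromosome 3. Their density was 1.17 times the median chromosome and their ratio of 3q to 3p was 1.76.

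**Figure D2:**
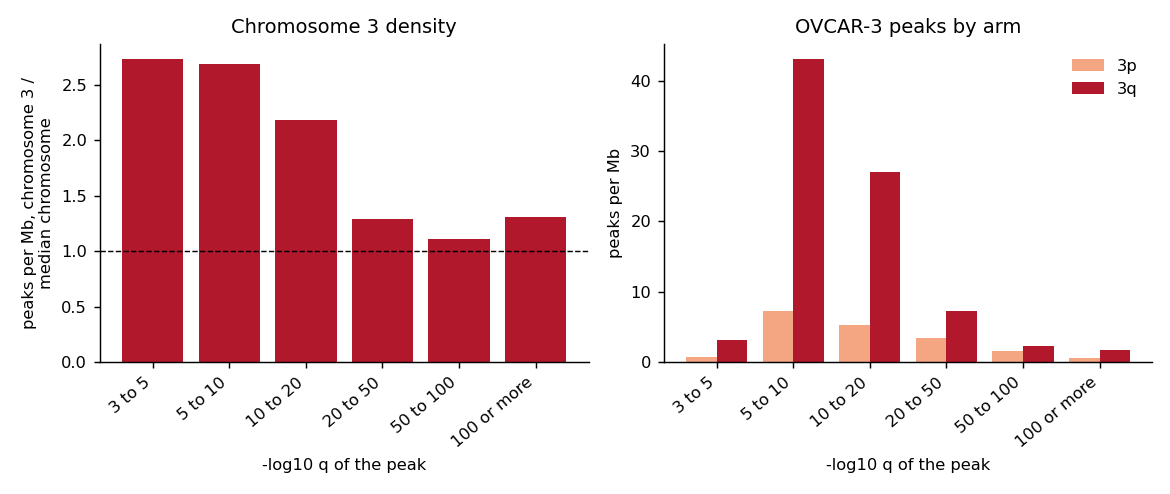
OVCAR-3 peaks by class of −log10 q. Left, peaks per Mb on chromosome 3 divided by those on the median chromosome (dashed line at 1), and right, peaks per Mb on 3p and 3q. The ratio is 2.69 in the class from 5 to 10 and 1.11 in the class from 50 to 100, and the arms differ most from 5 to 20.

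Few of these peaks were at promoters. Of the 10559 peaks, 1687 had the start of a protein-coding transcript within 1 kb (16.0%, exact 95% interval 15.3% to 16.7%), against 29.1% on the other chromosomes and 27.3% over the whole list. On 3p the share was 34.1% and on 3q 12.5%. The chromosome 3 shares of the other lines were 48.3% in SKOV-3, 37.6% in DU-145 and 21.5% in COLO-205. By summit, 63.6% of the OVCAR-3 peaks lay in introns, 24.9% between genes, 4.67% in untranslated exons, 3.49% in coding exons and 3.33% in other exons. Near-start peaks had a median width of 408 bp and a median −log10 q of 17.1, and the 8872 distal peaks 266 bp and 9.13. The share near a start depended on strength and distance. It was 57.6% among the 14001 strongest peaks of the list, against 59.3% on the other chromosomes at that setting, so most of the gap to the other chromosomes was absent there. Within each class of −log10 q the share was still lower on chromosome 3 than elsewhere. It was 9.47% against 15.9% from 5 to 10, 32.6% against 42.9% from 20 to 50 and 77.0% against 80.7% at 100 or more. With a distance of 5 kb the share over all chromosome 3 peaks was 32.4% against 44.8%.

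Most chromosome 3 peaks were found in OVCAR-3 alone. A peak of at least 1 other line overlapped 2415 of them (22.9%, exact 95% interval 22.1% to 23.7%), against 43.6% on the other chromosomes and 40.7% over the whole list. Peaks of all 3 other lines overlapped 235, or 2.23%, against 7.54% elsewhere. By line, 384 overlapped a SKOV-3 peak (3.64%, against 12.3% on the other chromosomes), 1480 a DU-145 peak (14.0%, against 34.9%) and 1370 a COLO-205 peak (13.0%, against 21.1%). Seen from the other lists, 70.3% of the SKOV-3 peaks on chromosome 3, 59.3% of the DU-145 peaks and 41.9% of the COLO-205 peaks overlapped an OVCAR-3 peak. A peak of any other line overlapped 64.2% of the DU-145 peaks on chromosome 3, against 36.7% on its other chromosomes. For COLO-205 these shares were 45.5% against 24.4%, and for SKOV-3 77.8% against 82.9%. The lower share on chromosome 3 thus held for the OVCAR-3 and SKOV-3 lists and not for the DU-145 and COLO-205 lists. A larger share of each other list lay in the OVCAR-3 list than the reverse, which follows from the longer OVCAR-3 list on this chromosome. The overlapping peaks numbered 446 in SKOV-3, 1518 in DU-145 and 1422 in COLO-205, near the OVCAR-3 counts given above. Of the OVCAR-3 peaks, 8144 overlapped no peak of the other lists. The OVCAR-3-only peaks had a median width of 261 bp and the shared ones 386 bp. The overlap was 42.8% when each list was limited to its 14001 strongest peaks, against 58.7% on the other chromosomes at the same setting, and it differed with strength, from 16.1% in the class from 5 to 10 to 87.1% at a −log10 q of 100 or more. In both of these classes the share was lower on chromosome 3 than elsewhere, where it was 31.4% and 94.1%.

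Windows of 10 Mb showed where along the chromosome these features changed. From 0 to 90 Mb the density was between 2.2 and 54.0 peaks per Mb, highest at 40 to 50 Mb, where 153 protein-coding genes start. It was 42.2 at 100 to 110 Mb, rose to 251.7 at 120 to 130 Mb with 2517 peaks, and fell to 147.3, 88.8 and 79.7 in the next 3 windows. Beyond 160 Mb it was between 39.5 and 65.7. The number of peaks per protein-coding gene was 26.8 at 120 to 130 Mb and 2.21 at 50 to 60 Mb. The overlap with other lines was lowest on 3p, at 9.57% from 60 to 70 Mb, although it was 48.3% from 50 to 60 Mb. On 3q it was 12.6% at 110 to 120 Mb and 55.1% from 190 Mb to the end of the arm, where COLO-205 had 808 peaks, DU-145 403 and OVCAR-3 523. The end of 3q was thus a stretch in which OVCAR-3 did not hold the most peaks.

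At shared peaks the tag pileup of OVCAR-3 was compared with that of the other line on a log2 scale, centred so that the median over the other chromosomes is 0. Against DU-145, the chromosome 3 median was 0.28 over 1480 peaks, with 63.9% above 0. It was 0.46 on 3p over 478 peaks and 0.20 on 3q over 1002. The windows from 0 to 90 Mb were between 0.19 and 0.81. It was 1.19 at 90 to 100 Mb over 7 peaks and 1.03, 1.29 and 1.08 in the windows from 100 to 130 Mb, with 26, 28 and 86 peaks, then 0.32 at 130 to 140 Mb and between 0 and 0.25 in the windows beyond. Against COLO-205, the median was 0.82 on 3p over 152 peaks and -0.38 on 3q over 1218 peaks, so the medians of the arms had opposite signs, although the window from 70 to 80 Mb on 3p was at -0.24 over 7 peaks. Against SKOV-3 it was 0.32 on 3p over 103 peaks and 0.59 on 3q over 281, but -0.59 over 27 peaks in the window from 160 to 170 Mb on 3q and -0.23 over 10 peaks at 70 to 80 Mb on 3p. A step in such a ratio can come from either line of the pair, and what lies behind the steps was not tested. Windows with few shared peaks give rough values, down to 4 peaks against COLO-205 at 80 to 90 Mb and 2 against SKOV-3 at 20 to 30 Mb.

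**Figure D3:**
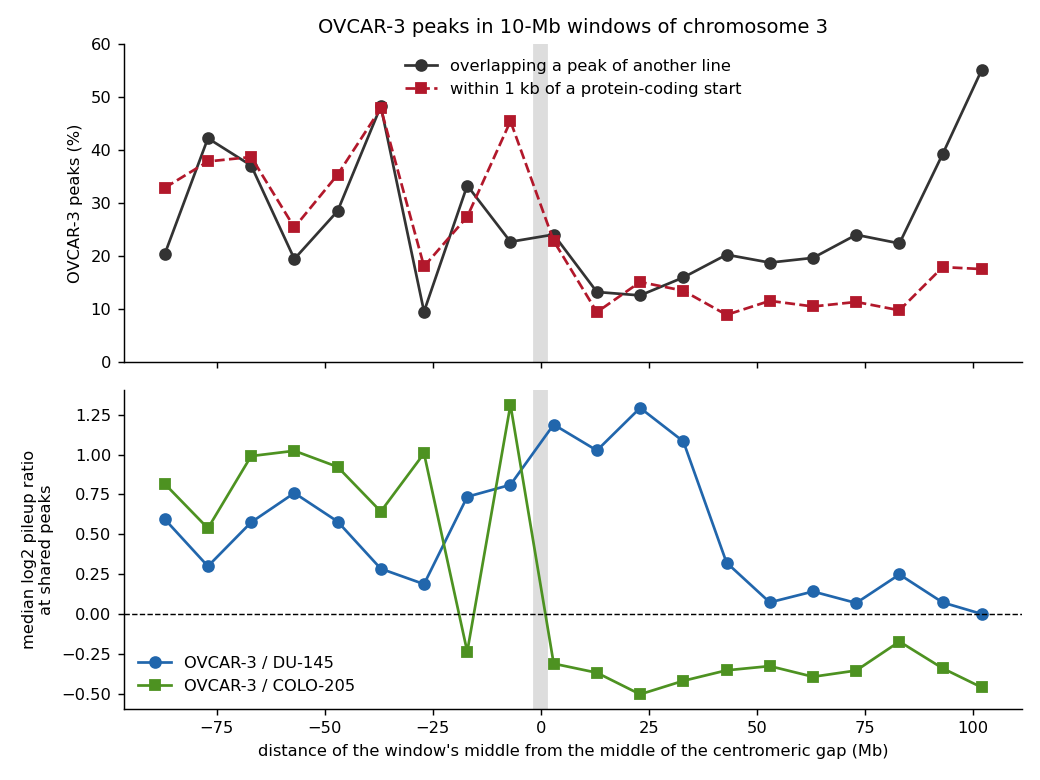
OVCAR-3 peaks in 10-Mb windows of chromosome 3, placed by distance from the middle of the centromeric gap (grey). Top, the percentage overlapping a peak of another line and the percentage within 1 kb of a protein-coding start. Bottom, the median log2 ratio of summit pileup at peaks shared with DU-145 and with COLO-205, where 0 is the median of the other chromosomes. The ratio to DU-145 is 1.08 at 120 to 130 Mb and 0.07 at 140 to 150 Mb, and the ratio to COLO-205 is negative in every window from 90 Mb on.

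The strongest peaks of the chromosome lay around AMOTL2. The highest −log10 q, 421, was in an exon of LINC02004 (chr3:134044070-134047614), with a fold enrichment of 47.0 and a summit 47971 bp from the outermost annotated start of AMOTL2. The peak over the AMOTL2 starts (chr3:134090766-134094808) had a −log10 q of 407 and a fold of 29.1, and its summit was 35 bp from the nearest annotated start and 1260 bp from the outermost. The widest peak of the chromosome, 7136 bp, lay within AMOTL2 (chr3:134082028-134089163) with a −log10 q of 318, and a peak in an intron of LINC02004 (chr3:134029775-134034020) had 343. Of the 5 strongest, 4 overlapped peaks of all 3 other lines and the LINC02004 intron peak those of SKOV-3 and DU-145. The other member of these 5 was at an internal annotated start of TBL1XR1, 31004 bp from the outermost (chr3:176913973-176916043), with a −log10 q of 363 and a fold of 39.9. Outside this locus, the widest peak was at PLXNB1, which encodes a semaphorin receptor, on 3p (chr3:48468548-48473273), 4726 bp wide and with a −log10 q of 254.

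The strongest distal peaks found in OVCAR-3 alone formed a group. Of the 5 with the highest −log10 q, 4 lay in 1 stretch between genes, at chr3:107689164-107689993, chr3:107695560-107695984, chr3:107700186-107701223 and chr3:107711029-107712988. Their −log10 q values were 266, 172, 241 and 214, and their folds 37.1, 37.4, 27.6 and 32.8. The nearest protein-coding gene by start was CD47, for a surface protein that inhibits uptake by macrophages. The summits were between 98546 and 121233 bp from its outermost start, and between 61423 and 84110 bp from the nearest start of any of its annotated transcripts. The outermost CD47 start had a peak in all 4 lines, with a −log10 q of 307 in OVCAR-3, 9.87 in SKOV-3, 10.4 in DU-145 and 4.32 in COLO-205. No link between these distal peaks and CD47 was measured. The fifth was the PPM1L intron peak (chr3:160743998-160744569), with a −log10 q of 182 and a fold of 39.8. By its letters its window looks like interspersed repeat sequence, so the placement of its reads is uncertain. Repeats, genomic copies and mappability were not measured for this or any other peak.

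Protein-coding genes were called marked in a line when a peak lay within 1 kb of any of their starts. On chromosome 3, 795 of 1083 genes were marked in OVCAR-3 (73.4%), against 60.7% over all chromosomes. The chromosome 3 counts in the other lines were 281 in SKOV-3 (25.9%, against 31.7% over all chromosomes), 663 in DU-145 (61.2%, against 59.995%) and 501 in COLO-205 (46.3%, against 51.3%). On 3p 68.9% of genes were marked and on 3q 77.4%. The strongest peak at a marked gene had a median −log10 q of 54.3 on chromosome 3, against 42.7 over the 12186 marked genes of all chromosomes, with 48.1 on 3p and 61.0 on 3q. Genes marked in OVCAR-3 alone numbered 101, or 9.33%, against 4.64% over all chromosomes. With a −log10 q of at least 10 in every list this count was 171, or 15.8%, against 7.51% over all chromosomes, and with 14001 peaks in every list 174, or 16.1%, against 4.96%. By window, the share was highest at 110 to 120 Mb, with 19 of 56 genes, and it was 0 of 61 from 190 Mb to the end.

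The 10 genes marked in OVCAR-3 alone with the highest −log10 q were on both arms. UMPS, an enzyme of pyrimidine synthesis, led with 151, followed by SSUH2 with 134, CELSR3, a cadherin of planar cell polarity, with 117 and ARHGAP31, a GTPase-activating protein, with 114. PRICKLE2, another planar cell polarity gene, had 103, IFT57, of intraflagellar transport, 102, and WNT5A, a secreted Wnt ligand, 92.5. SEMA3B, a secreted semaphorin, had 87.5, CBLB, a ubiquitin ligase, 86.2 and POGLUT1, which adds glucose to Notch, 81.2. The fold enrichment at SSUH2 was 30.4 and at PRICKLE2 25.5, against 12.8 at UMPS and 10.7 at CELSR3.

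The 8 lists of chromosome 3 genes can be read against the share of all protein-coding genes marked in each line, which was 60.7% in OVCAR-3, 31.7% in SKOV-3, 59.995% in DU-145 and 51.3% in COLO-205, and against the OVCAR-3 median −log10 q of 42.7. Of 24 distal 3q genes often gained in ovarian and squamous carcinomas, 23 were marked in OVCAR-3, 15 in SKOV-3, 21 in DU-145 and 20 in COLO-205. Their median −log10 q among those marked in OVCAR-3 was 113. The list is defined by frequent gains in tumours, and these values cannot be told apart from copy number in OVCAR-3. At PRKCI, an atypical protein kinase C, the −log10 q was 204.9 in OVCAR-3, 14.4 in SKOV-3, 44.5 in DU-145 and 8.11 in COLO-205. At PIK3CA, a catalytic subunit of phosphoinositide 3-kinase, the values in the same order were 132, 15.2, 50.8 and 19.7, and at MECOM, a zinc finger transcription factor gene, 115, 17.0, 11.6 and 14.2. SOX2, a stem cell transcription factor gene, had 184 in OVCAR-3, 10.1 in COLO-205 and no peak near its start in SKOV-3 and DU-145. TNFSF10, which encodes the death ligand TRAIL, was marked in OVCAR-3 alone, at 14.7. TP63 was marked in none of the lines, although 17 OVCAR-3 summits lay within the gene against 0, 1 and 3 in SKOV-3, DU-145 and COLO-205. OVCAR-3 values were not the highest throughout, since TERC, the telomerase RNA, had 14.4 against 28.1 in COLO-205, and ETV5 had 6.89 against 67.8 in DU-145.

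All 19 short arm tumour suppressor genes were marked in OVCAR-3, against 6 in SKOV-3, 14 in DU-145 and 5 in COLO-205. Over all 3p genes the shares were 68.9% in OVCAR-3, 18.6% in SKOV-3, 63.6% in DU-145 and 30.7% in COLO-205. The median −log10 q was 59.0. PBRM1, a chromatin remodelling subunit, had 154 in OVCAR-3, 27.3 in SKOV-3, 18.3 in DU-145 and 16.4 in COLO-205, and TGFBR2, the type II receptor of TGF-beta, had 127, 5.62, 23.1 and 23.1. VHL, a ubiquitin ligase subunit, had 51.2, 6.51 and 3.59 and no COLO-205 peak. RASSF1 had 59.0 in OVCAR-3 and 12.3 in DU-145. RARB, SEMA3B, SEMA3F, ROBO1 and ROBO2 were marked in OVCAR-3 alone, with values from 6.32 at ROBO2 to 87.5 at SEMA3B. FHIT, a large gene in a fragile site, held 14 OVCAR-3 summits, against 0, 1 and 0 in the other lines.

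Of 16 signalling genes, 13 were marked in OVCAR-3, 6 in SKOV-3, 11 in DU-145 and 11 in COLO-205, with an OVCAR-3 median of 103. GSK3B, a kinase of the Wnt pathway, had a −log10 q of 263 in OVCAR-3 against 31.4, 26.8 and 41.9 in SKOV-3, DU-145 and COLO-205. CTNNB1, which encodes beta-catenin, had 121, with 26.3 in DU-145, 15.8 in COLO-205 and no peak in SKOV-3. WWTR1, a Hippo pathway coactivator, had 196, against 15.8, 42.4 and 12.8, and held 51 summits. WNT7A was the reverse, with no OVCAR-3 peak near its start and values of 17.3 in SKOV-3 and 10.9 in DU-145. EPHA3 and IL17RD were marked in no line.

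Of 22 transcription factor genes, 20 were marked in OVCAR-3, 8 in SKOV-3, 17 in DU-145 and 16 in COLO-205, with an OVCAR-3 median of 66.7. The neighbours ZIC1 and ZIC4 share a start region and had 246 in OVCAR-3, 24.7 in DU-145 and 5.26 in COLO-205. NR1D2, a nuclear receptor of the circadian clock, had 219, ZNF148 186 and HES1, a Notch target, 135. PPARG, the adipocyte nuclear receptor, went the other way, with 3.70 in OVCAR-3 against 19.4, 24.6 and 15.9 in SKOV-3, DU-145 and COLO-205. SHOX2 was marked in OVCAR-3 alone, at 13.1, and SOX14 and SATB1 in no line.

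Of 20 epithelial adhesion and surface genes, 18 were marked in OVCAR-3, 6 in SKOV-3, 13 in DU-145 and 10 in COLO-205, with an OVCAR-3 median of 43.1. ITGB5 had 151 in OVCAR-3, 7.73 in SKOV-3, 5.88 in DU-145 and 17.8 in COLO-205, and CD47 was given above. The list also holds SIAH2, a ubiquitin ligase, and PLOD2, a collagen-modifying enzyme, which are neither adhesion nor surface proteins, and both were marked in all 4 lines. The mucin gene MUC13 had 18.6 in OVCAR-3 alone, as did CP, for ceruloplasmin, with 15.7, MME, a membrane peptidase, with 12.7 and ITGA9, an integrin subunit, with 6.62. The mucin gene MUC4 was higher in COLO-205, at 11.2 against 6.53, and held 25 COLO-205 summits against 2 in OVCAR-3. The tight junction gene CLDN18 was marked in COLO-205 alone, at 13.1, and TM4SF4 in no line.

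Widely expressed genes such as RPL32 and EIF4A2 were marked in 21 of 21 cases in OVCAR-3, 13 in SKOV-3, 20 in DU-145 and 15 in COLO-205, with an OVCAR-3 median of 109. Of 23 tissue-restricted genes of other cell types, 2 were marked in OVCAR-3, the chemokine receptor gene CCR3 at 11.0 and HRG, for a liver plasma protein, at 4.96. None of the 8 olfactory receptor genes in this list was marked in any line. Of the 4 genes to which the study assigned OVCAR-3 mutations, a list the study chose on this line, all had an OVCAR-3 peak. The −log10 q was 127 at TGFBR2, 86.2 at CBLB, 80.6 at FOXL2, an ovarian transcription factor gene, and 66.5 at PLXNA1, a semaphorin receptor gene. A −log10 q is not scaled between libraries, so these values order genes within a line better than lines at a gene.

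**Figure D4:**
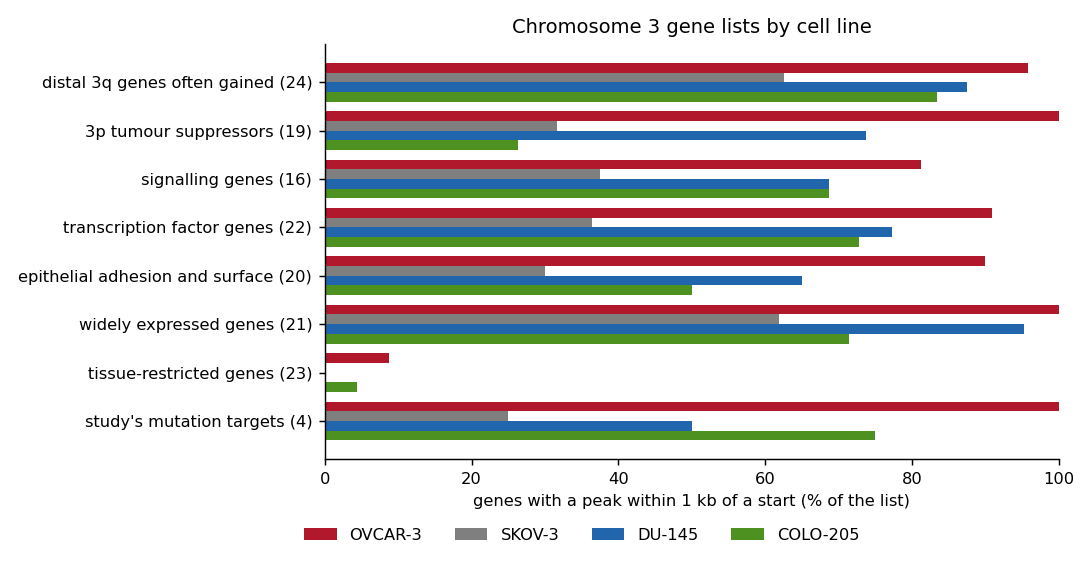
Percentage of the genes of each chromosome 3 list with a peak within 1 kb of a start in each line, with the number of genes in parentheses. OVCAR-3 has the highest bar in every list, with 19 of 19 for the 3p tumour suppressors and 2 of 23 for the tissue-restricted genes.

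The AP-1 letters occurred in the 200-base summit windows of 388 OVCAR-3 peaks on chromosome 3 (3.67%, exact 95% interval 3.32% to 4.05%), against 3.66% on the other chromosomes and 3.66% over all windows. The share of all 200-base windows of chromosome 3 with these letters was 6.40%, and the median GC content was 39.0% in those windows and 54.5% in the summit windows. Distal peaks had them in 3.90% on chromosome 3 and 4.25% elsewhere. The EGR1 letters occurred in 102 summit windows (0.966%, 0.788% to 1.17%), against 2.27% on the other chromosomes and 2.09% over all windows, and in 0.0892% of all chromosome 3 windows. Near starts the share was 4.09% on chromosome 3 and 6.40% elsewhere, and at distal peaks 0.372% and 0.573%. The GC content of near-start windows was also lower, with a median of 61.0% on chromosome 3 and 65.0% elsewhere, and its part in this difference was not tested. Among the 7370 distal peaks found in OVCAR-3 alone, the strongest peak with the AP-1 letters and no exon in its window was the ACP3 intron peak printed above, with a −log10 q of 72.7 and rank 55. A match of letters is a description of the sequence and shows no binding.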

How the data were processed

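H3K27ac ChIP-seq was done in 4 cell lines, 1 library each, grouped by title. The authors mapped reads to hg19 (GRCh37) with Bowtie2 2.1.0 and called narrow peaks per library with MACS2 2.1.0.20150603 at a q-value below 0.001 (versions from the submitters' processing notes). The deposited columns are a score, a fold enrichment (a ratio to the local background), a −log10 p, a −log10 q and the summit offset, none scaled between libraries. Merging of peaks under 350 bp apart is stated in the methods, but closer neighbours remain in the deposited lists, which were used as they are.

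Pileup and background at each summit were solved from fold and −log10 p, within 0.001, for 100% of peaks. Depth was estimated from the lowest background with 2700000000 genome positions, taking the narrowest peak width of each list as the fragment length. A peak was placed by its summit, in an arm split at the longest assembly gap (90504855 to 93504854). Starts are all transcripts of protein-coding genes of GENCODE 44 on GRCh37, and an overlap needs 1 bp. The interval and pileup code was checked on simulated data. Intervals are exact Clopper-Pearson at 95% and cover counting error only. With 1 library per line, no test was made.

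The members and gene lists were chosen with earlier results of these data known. Named are the 5 bins with the most peaks and 3 with the fewest, the 5 strongest, 5 widest and 5 strongest distal OVCAR-3-only peaks, the 5 domains with most bases under peaks, list members, and the 10 strongest genes marked in OVCAR-3 alone. The remaining 8 bins of 200 peaks, the genes ranked by summits, the strength classes, the bin correlations and the peaks holding motif letters were chosen after the values were seen. The software was samtools 1.23.1 and Python 3.11.15 with pandas 2.3.3, scipy 1.17.1, numpy 2.4.6 and matplotlib 3.10.9. A few items are not reported here.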

Additional observations from a re-analysis of the deposited data

How the results depend on the processing

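Of 39 recomputed values, 16 moved by less than the counting interval or, for counts, by less than 1.5 times, among them all those with a −log10 q of at least 5. Merging peaks under 350 bp apart gave a relative density of 2.13, a share near starts of 14.4%, a median width of 285 bp and a ratio of 3q to 3p of 4.82. A −log10 q of at least 10 gave 5005 peaks, a relative density of 1.67, 23.1% near starts, 18.1% shared, a width of 348 bp, a ratio of 3.50 and 171 genes marked in OVCAR-3 alone. With 14001 peaks in every list these values were 1040 peaks, 1.17, 57.6%, 42.8%, 718 bp, 1.76 and 174 genes, and the cause of these changes beyond the smaller number of peaks was not tested. At that setting OVCAR-3 held the most peaks in 96 bins of 1 Mb, against 142 with the full lists. This change is counted above as less than 1.5 times. On the other chromosomes the last setting gave 59.3% near starts and 58.7% shared. A distance of 5 kb gave 32.4% near starts, an overlap of 50% gave 18.7% shared, and full chromosome lengths gave a relative density of 2.19. OVCAR-3 held the most peaks in 251 bins of 500 kb and 80 bins of 2 Mb, out of different total numbers of bins. No paired analysis was possible because each line was profiled in a single library. Without replicates, differences between lines cannot be separated from differences between libraries. The median chromosome 3 peak rests on a pileup of 23 tags, and the effect of depth was not tested.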
